A study of Mus musculus with 6 samples.

Results

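The 42 genes described here code for building blocks and regulators of epithelial and mesothelial cell layers: simple keratins, claudins and other tight junction proteins, desmosome proteins, cadherins, surface proteins of mesothelium, transcription factors of the mesonephric duct, epithelial transcription and splicing factors, a membrane protease with its inhibitors, and epithelial trafficking proteins. They were picked by gene symbol from a written list, with no threshold on the measurements. The list was chosen with earlier results of these data known, so its shares set against all genes are a description, not an independent test. All 42 were on the array, out of 19084 genes with a symbol. A total of 52 probes carried them, and 6 of the genes had several. Their levels were read from 6 arrays, each hybridised with Cy5-labelled RNA of mouse gonadal cells (outbred strain ICR), in 3 groups of 2 arrays. The PGC colony group held colonies grown for 7 days in 5% O2 from gonadal cells of 67 embryos at E11.5, whose sex is not given in the labels. The GSC colony group held colonies grown in the same way from testicular cells of 80 mice aged newborn to postnatal day 2. Both kinds of colony were cultured on laminin (200 ng/cm2) with EGF, the epidermal growth factor, at 10 ng/ml, and picked before RNA extraction. The CD49f+ sorted group held uncultured cells from 100 mice aged newborn to postnatal day 2, taken by magnetic beads against CD49f, the integrin subunit encoded by Itga6, and labelled as under physiological hypoxia with no oxygen value. The labels spell out PGC as primordial germ cell and GSC as glandular stem cell. Animals were pooled in every group, and no label tells whether both arrays of a group stand for separate preparations, so p-values reflect just the spread between arrays, which may be technical.

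Epithelial cells are held together by belts of junctions. Claudins, occludin-family proteins and their scaffolds seal the gaps between neighbours, cadherins and desmosomes anchor cells to each other, and keratin filaments tie the desmosomes into the cell body. Mesothelium, the sheet that covers the body cavities and the surface of the gonad, also carries keratins and adds surface proteins of its own, such as mesothelin, the large mucin of ovarian surface and pleura, and uroplakins. In the fetal gonad, Sertoli cells take on epithelial features, and the mesonephric duct next to the gonad is an epithelium of the excretory system.

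Most of these genes were lower in both kinds of colony than in the uncultured sorted cells. The 4 tested mesothelial genes among them were highest in GSC colonies, while those of a second mesothelial list, given below, went both ways. Of 39 genes that passed the filter on low signal, 26 fell and 3 rose in PGC colonies against sorted cells, and 20 fell and 6 rose in GSC colonies against sorted cells. Over all 15459 genes tested, 23.2% fell and 22.8% rose in PGC colonies and 24.5% fell and 22.5% rose in GSC colonies, both against sorted cells. PGC colonies differed from GSC colonies in 9 genes, 8 lower and 1 higher, where 15.1% of all genes passed, and 4 of the 8 were mesothelial. The sorted group had the highest mean for 28 of the 39 genes, against 2 for PGC colonies and 9 for GSC colonies. Over all tested genes the highest mean lay in PGC colonies for 28.5%, in GSC colonies for 29.8% and in sorted cells for 41.7%. For 25 genes both sorted arrays lay above all 4 colony arrays, for 7 both GSC colony arrays lay above all others (Cldn1, Pkp2, Perp, Msln, Muc16, Upk1b and Upk3b), and for 1, St14, both PGC colony arrays did. Over all tested genes, both arrays of a group lay above all others for 14.8% in PGC colonies, 15.7% in GSC colonies and 29.6% in sorted cells. Lrrn4, a mesothelial leucine-rich repeat gene, Muc1, an apical mucin, and Grhl2, an epithelial transcription factor, lay too near the background to be tested.

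**Figure D1:**
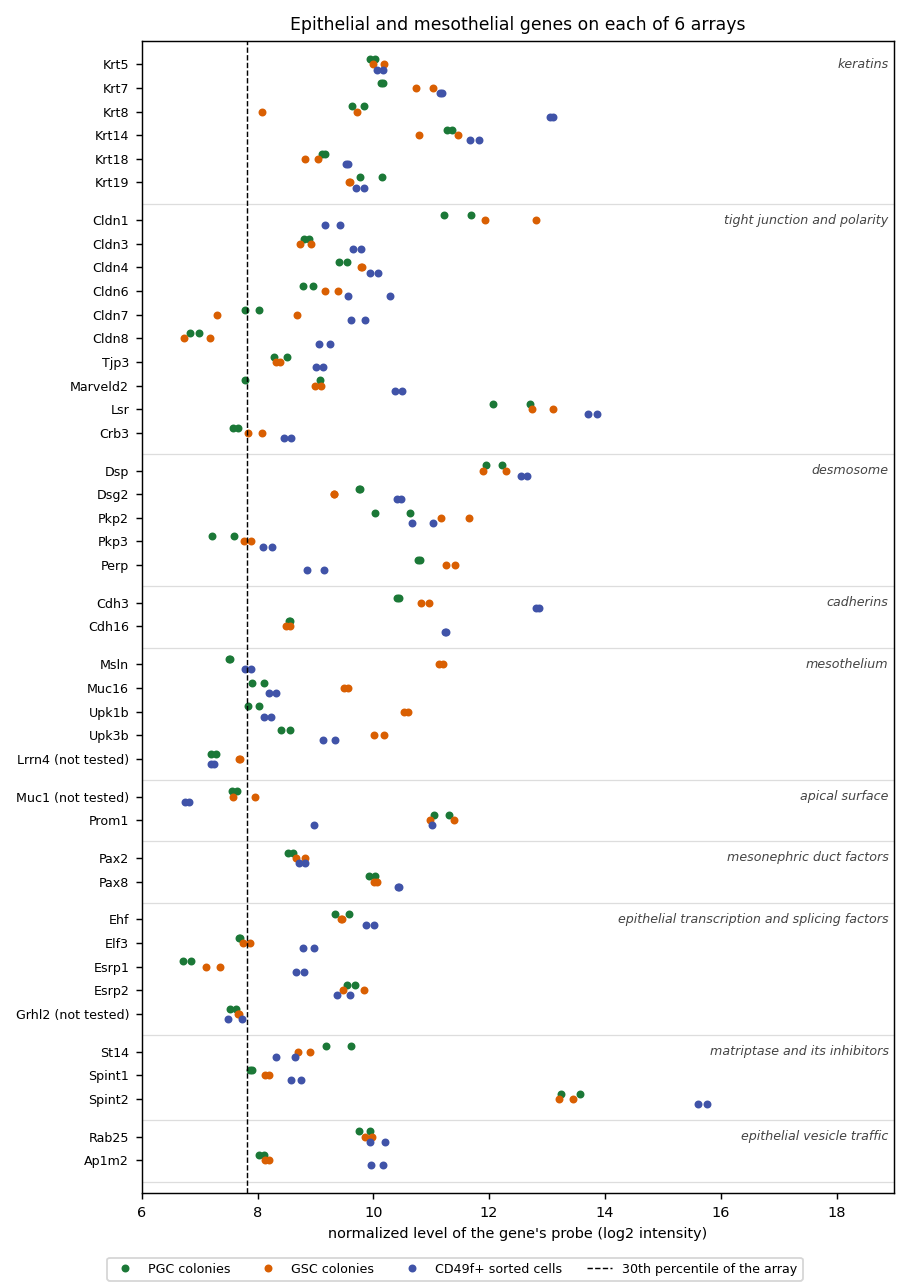
Normalized level (log2 intensity, x axis) of the probe of each of the 42 genes on each of 6 arrays, grouped by role, with PGC colonies, GSC colonies and CD49f+ sorted cells in separate colours and the 30th percentile of the arrays as a dashed line. Cdh16, Spint2, Ap1m2 and Krt8 lie highest on both sorted arrays, whereas Msln, Upk1b, Muc16 and Upk3b lie highest on both GSC colony arrays.

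The sequence before the start of a gene was examined for 27 of the 42 genes, those with an entry in the RefSeq promoter table (build GRCm38.p6). Each is the 250 bases before the annotated start, written 5′ to 3′ on the strand of the gene, with every CACCTG or its reverse complement CAGGTG in capitals. These letters are an E-box of the kind that ZEB and SNAI repressors of epithelial genes are known to bind. The promoters of 6 genes that were higher on the sorted arrays are shown first (Krt8, Krt18, Ap1m2, Spint2, Elf3 and Cldn6), and those of 3 genes that were highest in GSC colonies follow (Muc16, Upk3b and Cldn1).
Krt8: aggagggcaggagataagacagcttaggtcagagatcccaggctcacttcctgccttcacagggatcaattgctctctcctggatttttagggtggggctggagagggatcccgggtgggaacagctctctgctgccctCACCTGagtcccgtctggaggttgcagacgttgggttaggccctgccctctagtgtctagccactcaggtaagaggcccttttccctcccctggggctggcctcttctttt
Krt18: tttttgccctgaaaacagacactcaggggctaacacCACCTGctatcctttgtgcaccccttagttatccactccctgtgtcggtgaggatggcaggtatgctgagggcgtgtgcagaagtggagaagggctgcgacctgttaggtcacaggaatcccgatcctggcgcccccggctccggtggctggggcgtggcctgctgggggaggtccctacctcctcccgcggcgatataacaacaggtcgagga
Ap1m2: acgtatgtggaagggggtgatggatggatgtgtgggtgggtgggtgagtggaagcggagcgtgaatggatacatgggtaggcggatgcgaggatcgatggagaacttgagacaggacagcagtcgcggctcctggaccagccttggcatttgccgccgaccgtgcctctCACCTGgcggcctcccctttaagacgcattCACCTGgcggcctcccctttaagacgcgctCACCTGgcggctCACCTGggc
Spint2: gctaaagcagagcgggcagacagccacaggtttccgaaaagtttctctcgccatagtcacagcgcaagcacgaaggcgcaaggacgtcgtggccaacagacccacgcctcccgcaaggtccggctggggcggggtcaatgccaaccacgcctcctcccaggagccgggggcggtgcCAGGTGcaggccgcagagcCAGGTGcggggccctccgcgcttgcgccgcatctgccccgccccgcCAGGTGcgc
Elf3: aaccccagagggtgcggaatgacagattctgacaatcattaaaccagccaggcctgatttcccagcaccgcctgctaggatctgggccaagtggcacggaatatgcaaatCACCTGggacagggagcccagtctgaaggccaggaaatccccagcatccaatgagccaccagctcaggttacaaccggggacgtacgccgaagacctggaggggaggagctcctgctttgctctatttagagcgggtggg
Cldn6: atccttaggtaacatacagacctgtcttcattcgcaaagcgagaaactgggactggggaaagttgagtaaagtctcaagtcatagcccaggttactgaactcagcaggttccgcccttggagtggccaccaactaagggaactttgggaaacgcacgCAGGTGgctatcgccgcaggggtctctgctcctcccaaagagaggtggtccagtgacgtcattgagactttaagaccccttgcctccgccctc
Muc16: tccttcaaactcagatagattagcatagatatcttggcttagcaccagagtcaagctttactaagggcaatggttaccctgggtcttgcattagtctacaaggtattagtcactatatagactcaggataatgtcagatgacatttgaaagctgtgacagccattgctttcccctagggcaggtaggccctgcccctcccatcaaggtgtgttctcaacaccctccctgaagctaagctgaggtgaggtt
Upk3b: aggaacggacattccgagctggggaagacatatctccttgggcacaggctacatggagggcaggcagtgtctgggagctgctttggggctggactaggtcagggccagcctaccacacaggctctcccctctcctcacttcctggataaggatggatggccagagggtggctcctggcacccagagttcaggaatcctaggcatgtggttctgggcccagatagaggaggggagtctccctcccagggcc
Cldn1: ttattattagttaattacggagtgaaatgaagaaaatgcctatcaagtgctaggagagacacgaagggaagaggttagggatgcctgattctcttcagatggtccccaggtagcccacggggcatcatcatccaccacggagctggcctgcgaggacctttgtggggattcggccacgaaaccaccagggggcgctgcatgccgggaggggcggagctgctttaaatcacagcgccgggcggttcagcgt
The choice of motif and of promoters to print was made after the values were seen and the matches counted, so the counts are a description with no test.

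On GRCm38.p6, the printed windows lie at chr15:102004343-102004592 (minus strand) for Krt8, chr15:102027966-102028215 (plus strand) for Krt18, chr9:21312334-21312583 (minus strand) for Ap1m2. Those of the other 3 genes higher in sorted cells lie at chr7:29281978-29282227 (minus strand) for Spint2, chr1:135258473-135258722 (minus strand) for Elf3, chr17:23679115-23679364 (plus strand) for Cldn6. The windows of the genes highest in GSC colonies lie at chr9:18674604-18674853 (minus strand) for Muc16, chr5:136038246-136038495 (plus strand) for Upk3b, chr16:26371840-26372089 (minus strand) for Cldn1. The E-box stood at position -111 from the start of Krt8, -214 of Krt18, -140 of Elf3 and -93 of Cldn6, counted at its first base. Spint2 had 3 matches, at -74, -55 and -9, and Ap1m2 had 4, at -81, -51, -21 and -9. The printed windows of Muc16, Upk3b and Cldn1 held 0 matches. Across the 27 genes, 17 windows (63.0%) held an E-box, against 19.4% of the windows of 27025 genes in the table and 19.3% of those of 12251 tested genes. Among the genes lower in GSC colonies than in sorted cells, 9 of 14 windows held one, among those not past the test 7 of 8, and among those higher 0 of 3. The 7 not past the test were Krt5, Krt7, Cldn4, Cldn6, Prom1, Pax2 and Rab25, and of these only Cldn6 is printed. The share was thus no higher among the lower genes than among those not past the test. The windows of Cldn3, Marveld2, Dsp, Pax8 and Spint1, which were lower but held no E-box, are not printed. Set against the sorted cells, PGC colonies gave 12 of 18 for lower genes, 4 of 6 for genes not past the test and 0 of 1 for higher ones. Another 7 motifs were searched on both strands in the same windows, overlaps with other motifs allowed. The SP type CCCGCCC was found in 11 windows (40.7%, against 42.5% of tested genes), the ETS type AGGAAG in 10 (37.0% against 31.9%) and the TEAD type CATTCC in 7 (25.9% against 13.0%). The SOX type ACAAAG was in 4 (14.8% against 15.7%), the AP-1 type TGANTCA in 3 (11.1% against 6.46%), TATAAA in 2 (7.41% against 10.3%) and the GRHL type AACCGGTT in 0 (against 0.196%). A match is a run of letters in the window and was not measured as a site of binding.

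All levels below are normalized log2 intensities of 1 probe per gene, given as replicates 1 and 2 of each group, and differences are on the same log2 scale with their SE from limma (n = 2 arrays per group). A gene counted as changed when its Benjamini-Hochberg adjusted p, over 15459 tested genes, was under 0.05. Testing required that 2 or more of the 6 arrays reached their 30th percentile, a level of 7.82. Where neither array of the dimmer group reached it, the difference is given as a lower bound on the fold. Cldn8 and Esrp1 reached the level in the sorted arrays only, so their place among the tested genes came with being high there, and without them 24 and 27 of 37 genes were called against sorted cells in GSC and PGC colonies. The 3 comparisons share arrays, so a gene's differences are set side by side and not counted as separate support.

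Arrays of one group were close to each other across all probes, with Pearson's r of 0.992 for PGC colonies, 0.983 for GSC colonies and 0.992 for sorted cells, against 0.966 to 0.979 between PGC and GSC colony arrays and 0.915 to 0.933 between colony and sorted arrays. Median deposited intensity was 587 and 541 in PGC colonies, 606 and 558 in GSC colonies, and 393 and 406 in sorted cells. Among the 42 genes, differences of more than 1 between the arrays of a group occurred for Marveld2 in PGC colonies, Krt8 and Cldn7 in GSC colonies and Prom1 in sorted cells. Markers of other cell types moved with the groups. Fibroblast markers had a summed linear level of 257535 to 269024 in PGC colonies, 507687 to 522844 in GSC colonies and 22279 to 25240 in sorted cells, and 9 of 9 tested were higher in either colony group than in sorted cells. Col1a1, also on that list, lay under the 30th percentile on every array and was not tested. It read 7.49 and 7.45 in PGC colonies, 7.01 and 6.85 in GSC colonies, and 7.68 and 7.80 in sorted cells. Sertoli markers summed to 230123 to 252123 in PGC colonies, 316370 to 318720 in GSC colonies and 639854 to 659593 in sorted cells, with 11 of 12 lower in PGC colonies and 10 of 12 lower (1 higher) in GSC colonies against sorted cells. Amh, a defining Sertoli gene, lay under the 30th percentile on both GSC colony arrays and on 1 of 2 PGC colony arrays. Leukocyte markers summed to 11088 to 13116 in PGC colonies, 6248 to 6474 in GSC colonies and 78700 to 81169 in sorted cells, with 9 of 9 lower in either colony group. Endothelial markers summed to 9253 to 9373 in PGC colonies, 19424 to 20469 in GSC colonies and 58238 to 59949 in sorted cells, with 10 of 10 lower in PGC colonies and 9 of 10 lower (1 higher) in GSC colonies. Leydig markers summed to 21618 to 21743 in PGC colonies, 23701 to 24504 in GSC colonies and 77602 to 81031 in sorted cells, with 3 of 5 lower in PGC colonies, and 3 lower and 1 higher in GSC colonies. Germ cell markers were low in all groups, at 3850 to 4163 in PGC colonies, 7585 to 7642 in GSC colonies and 4696 to 4749 in sorted cells. Of 7 germ cell markers tested, 5 were lower in PGC than in GSC colonies, 5 were higher and 1 lower in GSC colonies than in sorted cells, and 1 was higher and 3 lower in PGC colonies than in sorted cells. Over all tested genes, 15.1%, 47.1% and 46% passed in these 3 comparisons, in that order. Of the 10 germ cell markers, Dazl, Dppa3, Sall4 and Tdrd1 lay under the 30th percentile on both arrays of the PGC colonies. The part of these cell types in the results below was not tested, and in bulk RNA fewer cells of a type and less RNA per cell cannot be told apart.

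Simple keratins, the filaments of single-layered epithelia, were lower in the colonies where they differed. Krt8, which pairs with Krt18 in the first embryonic epithelia and in Sertoli cell precursors, measured 9.63 and 9.83 in PGC colonies, 8.08 and 9.72 in GSC colonies, and 13.04 and 13.11 in sorted cells. Both sorted arrays stood far above every colony array, and the GSC colony arrays differed by 1.64 between themselves. Krt8 fell by 4.17 ± 0.48 in GSC colonies (limma adjusted p = 0.00064) and fell by 3.35 ± 0.48 in PGC colonies (adjusted p = 0.0017) against sorted cells, while PGC and GSC colonies differed by 0.82 ± 0.48 (adjusted p = 0.31). Leaving out GSC colony replicate 1 put the colony groups 0.0042 apart, while leaving out replicate 2 put them 1.65 apart, which passed (adjusted p = 0.00025). Its partner Krt18 had a narrower range, with 9.16 and 9.11 in PGC colonies, 8.82 and 9.04 in GSC colonies, and 9.57 and 9.52 in sorted cells. It fell by 0.62 ± 0.12 in GSC colonies (adjusted p = 0.0058) and fell by 0.41 ± 0.12 in PGC colonies (adjusted p = 0.029) against sorted cells. The 250 bases before both genes each held 1 E-box. Krt7, a keratin of ducts and mesothelium, separated PGC colonies from the rest, at 10.17 and 10.13 in PGC colonies, 11.04 and 10.73 in GSC colonies, and 11.18 and 11.15 in sorted cells. It fell by 0.73 ± 0.13 in PGC colonies against GSC colonies (adjusted p = 0.015) and fell by 1.02 ± 0.13 against sorted cells (adjusted p = 0.0011). Krt19, the small keratin of ducts and mesothelium, did not pass, at 9.77 and 10.14 in PGC colonies, 9.57 and 9.59 in GSC colonies, and 9.70 and 9.84 in sorted cells. The basal keratins Krt5 and Krt14 did not pass either, and their largest difference was -0.62 ± 0.22 for Krt14 in GSC colonies against sorted cells (adjusted p = 0.06).

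Tight junction and polarity genes made up the largest role group, with 10 tested members. Of these, 9 fell and 1 rose in PGC colonies, and 7 fell and 1 rose in GSC colonies, both against sorted cells, where 46% and 47.1% of all tested genes passed. Between the colony groups 0 of 10 passed limma's test. An unadjusted p under 0.05 was found for 3, with no share of all genes counted beside it. The member that rose was Cldn1, a claudin of the epidermal barrier, with 11.23 and 11.69 in PGC colonies, 11.93 and 12.81 in GSC colonies, and 9.42 and 9.17 in sorted cells. All 4 colony arrays were above both sorted arrays. Cldn1 rose by 3.07 ± 0.31 in GSC colonies (adjusted p = 0.00035) and by 2.16 ± 0.31 in PGC colonies (adjusted p = 0.0017), and the colonies differed by -0.91 ± 0.31, PGC minus GSC (adjusted p = 0.11), or by -1.35 without GSC colony replicate 1, where it passed.

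The other claudins ran the opposite way. Cldn8, a claudin of distal kidney tubules, lay under the 30th percentile on all colony arrays, at 7.00 and 6.83 in PGC colonies and 7.17 and 6.73 in GSC colonies, against 9.06 and 9.25 in sorted cells. PGC colonies were at least 2.53-fold lower and GSC colonies at least 2.52-fold lower, each with an adjusted p of 0.00013. Cldn7, a widespread epithelial claudin, measured 7.79 and 8.02 in PGC colonies, 8.68 and 7.29 in GSC colonies, and 9.62 and 9.86 in sorted cells. Every sorted array was above every colony array, though 1 array of each colony group lay below the filter's level. Cldn7 fell by 1.83 ± 0.41 in PGC colonies (adjusted p = 0.012) and fell by 1.75 ± 0.41 in GSC colonies (adjusted p = 0.014). Cldn3, which also serves as a receptor for a clostridial toxin, had 8.89 and 8.80 in PGC colonies, 8.73 and 8.93 in GSC colonies, and 9.79 and 9.64 in sorted cells, and fell by 0.87 ± 0.12 in PGC colonies (adjusted p = 0.0017) and fell by 0.89 ± 0.12 in GSC colonies (adjusted p = 0.0015). Its relative Cldn4 fell by 0.54 ± 0.11 in PGC colonies (adjusted p = 0.0085), at 9.54 and 9.41 against 10.08 and 9.95 in sorted cells, and GSC colonies lay between, at 9.79 and 9.80. Cldn6, a claudin of embryonic epithelia, was likewise lowest in PGC colonies, at 8.96 and 8.78, with 9.39 and 9.16 in GSC colonies and 9.55 and 10.29 in sorted cells. It fell by 1.05 ± 0.24 in PGC colonies against sorted cells (adjusted p = 0.013), and the difference of -0.64 ± 0.24 in GSC colonies did not pass (adjusted p = 0.074).

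Genes of proteins that join claudins at cell corners and on the inner face were lower too. Lsr, a receptor of the junctions at cell corners, had 12.70 and 12.06 in PGC colonies, 12.75 and 13.10 in GSC colonies, and 13.87 and 13.71 in sorted cells. It fell by 1.41 ± 0.23 in PGC colonies (adjusted p = 0.0033) and fell by 0.86 ± 0.23 in GSC colonies (adjusted p = 0.023), against sorted cells. Its partner at the same corners, Marveld2 (tricellulin), measured 9.08 and 7.79 in PGC colonies, 9.09 and 8.98 in GSC colonies, and 10.50 and 10.37 in sorted cells. Although the PGC colony arrays differed by 1.29, both were below the sorted arrays, and Marveld2 fell by 2.00 ± 0.38 in PGC colonies (adjusted p = 0.006) and fell by 1.39 ± 0.38 in GSC colonies (adjusted p = 0.025). Tjp3, a scaffold beneath tight junctions, measured 8.51 and 8.29 in PGC colonies, 8.32 and 8.38 in GSC colonies, and 9.13 and 9.00 in sorted cells, and fell by 0.67 ± 0.12 in PGC colonies (adjusted p = 0.0055) and fell by 0.71 ± 0.12 in GSC colonies (adjusted p = 0.004). Crb3, a membrane protein that marks the apical side, lay under the filter's level in PGC colonies, at 7.67 and 7.57, with 7.84 and 8.08 in GSC colonies and 8.58 and 8.46 in sorted cells. It was lower in PGC colonies by at least 1.63-fold (adjusted p = 0.0017) and fell by 0.56 ± 0.13 in GSC colonies (adjusted p = 0.012). No colony array reached a sorted array for any of these 4 genes.

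Desmosome genes split in both directions. Perp, a tetraspan protein of desmosomes and a p53 target, was high in both colony groups, at 10.77 and 10.81 in PGC colonies, 11.42 and 11.25 in GSC colonies, and 9.14 and 8.85 in sorted cells. The 3 groups did not overlap. Perp rose by 2.34 ± 0.14 in GSC colonies (adjusted p = 3.5e-05) and by 1.79 ± 0.14 in PGC colonies (adjusted p = 0.00012) against sorted cells, and fell by 0.55 ± 0.14 in PGC colonies against GSC colonies (adjusted p = 0.046). Dsg2, a desmosomal cadherin, ran the other way, with 9.77 and 9.75 in PGC colonies, 9.33 and 9.32 in GSC colonies, and 10.47 and 10.42 in sorted cells. It was the 1 gene of the 42 called higher in PGC colonies than in GSC colonies, by 0.43 ± 0.10 (adjusted p = 0.036), and against sorted cells it fell by 1.12 ± 0.10 in GSC colonies (adjusted p = 0.00022) and fell by 0.69 ± 0.10 in PGC colonies (adjusted p = 0.0019). Desmoplakin, Dsp, which links desmosomes to keratins, measured 11.94 and 12.22 in PGC colonies, 11.90 and 12.29 in GSC colonies, and 12.66 and 12.56 in sorted cells. It fell by 0.53 ± 0.17 in PGC colonies (adjusted p = 0.045) and fell by 0.51 ± 0.17 in GSC colonies (adjusted p = 0.0498), both close to the threshold. The plakophilin Pkp2, a plaque protein of simple epithelia and heart, fell by 1.08 ± 0.26 in PGC colonies against GSC colonies (adjusted p = 0.042). Its levels were 10.02 and 10.63 in PGC colonies, 11.65 and 11.17 in GSC colonies, and 10.66 and 11.02 in sorted cells, and a second Pkp2 probe differed by -0.81 between the colony groups. In GSC colonies against sorted cells Pkp2 differed by 0.57 ± 0.26, which did not pass (limma adjusted p = 0.13). The second probe differed there by 0.50 and passed in a limma fit over all probes (adjusted p = 0.019). Pkp3, a plakophilin of stratified and simple epithelia, was under the filter's level in PGC colonies, at 7.59 and 7.21, and was at least 1.28-fold lower than in sorted cells, at 8.10 and 8.24 (adjusted p = 0.0077), with GSC colonies at 7.76 and 7.88.

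Both cadherins were much lower in the colonies. Cdh16, the kidney-specific cadherin of tubule epithelium, measured 8.56 and 8.55 in PGC colonies, 8.49 and 8.56 in GSC colonies, and 11.24 and 11.26 in sorted cells. The colony groups overlapped and the sorted arrays stood apart from both, and Cdh16 fell by 2.72 ± 0.10 in GSC colonies (adjusted p = 6.3e-06) and fell by 2.69 ± 0.10 in PGC colonies (adjusted p = 8.1e-06). Cdh3, P-cadherin of placenta, skin and Sertoli cells, measured 10.44 and 10.40 in PGC colonies, 10.96 and 10.82 in GSC colonies, and 12.86 and 12.81 in sorted cells, so that the 3 groups did not overlap. It fell by 2.42 ± 0.11 in PGC colonies (adjusted p = 1.5e-05) and fell by 1.95 ± 0.11 in GSC colonies (adjusted p = 2.9e-05) against sorted cells, and fell by 0.47 ± 0.11 in PGC colonies against GSC colonies (adjusted p = 0.036). Its other 2 probes lay under the filter's level on all 4 colony arrays and above it on both sorted arrays.

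Each of the 4 tested mesothelial genes was higher in GSC colonies than in PGC colonies and than in sorted cells. Mesothelin, Msln, a surface protein of mesothelium, measured 7.51 and 7.51 in PGC colonies, 11.21 and 11.13 in GSC colonies, and 7.78 and 7.88 in sorted cells. Outside GSC colonies only 1 array reached the 30th percentile. Msln was lower in PGC colonies by at least 10.2-fold than in GSC colonies (adjusted p = 1.9e-05) and rose by 3.34 ± 0.11 in GSC colonies against sorted cells (adjusted p = 3.8e-06). Upk1b, a uroplakin of urothelium and mesothelium, measured 7.84 and 8.03 in PGC colonies, 10.60 and 10.52 in GSC colonies, and 8.12 and 8.23 in sorted cells. It fell by 2.63 ± 0.12 in PGC colonies against GSC colonies (adjusted p = 8.4e-05) and rose by 2.39 ± 0.12 in GSC colonies against sorted cells (adjusted p = 2e-05). Muc16, the large mucin that binds mesothelin, followed with 8.11 and 7.90 in PGC colonies, 9.57 and 9.50 in GSC colonies, and 8.31 and 8.20 in sorted cells. For both Upk1b and Muc16 the PGC arrays lay just below the sorted arrays and the GSC arrays far above them. Muc16 fell by 1.53 ± 0.12 in PGC colonies against GSC colonies (adjusted p = 0.00066) and rose by 1.28 ± 0.12 in GSC colonies against sorted cells (adjusted p = 0.00029). Upk3b, another uroplakin of mesothelium, was intermediate in sorted cells, at 8.40 and 8.56 in PGC colonies, 10.18 and 10.02 in GSC colonies, and 9.13 and 9.33 in sorted cells. It fell by 1.62 ± 0.13 in PGC colonies against GSC colonies (adjusted p = 0.00068) and fell by 0.75 ± 0.13 against sorted cells (adjusted p = 0.0041), and rose by 0.87 ± 0.13 in GSC colonies against sorted cells (adjusted p = 0.0021). Lrrn4 lay under the filter's level on every array, at 7.28 and 7.19 in PGC colonies, 7.69 and 7.69 in GSC colonies, and 7.25 and 7.19 in sorted cells, and was not tested. Against sorted cells, PGC colonies differed by -0.24 ± 0.12 for Upk1b (adjusted p = 0.15) and by -0.25 ± 0.12 for Muc16 (adjusted p = 0.14), and Msln, with both PGC arrays under the filter's level, was called lower by at least 1.01-fold (adjusted p = 0.049).

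**Figure D2:**
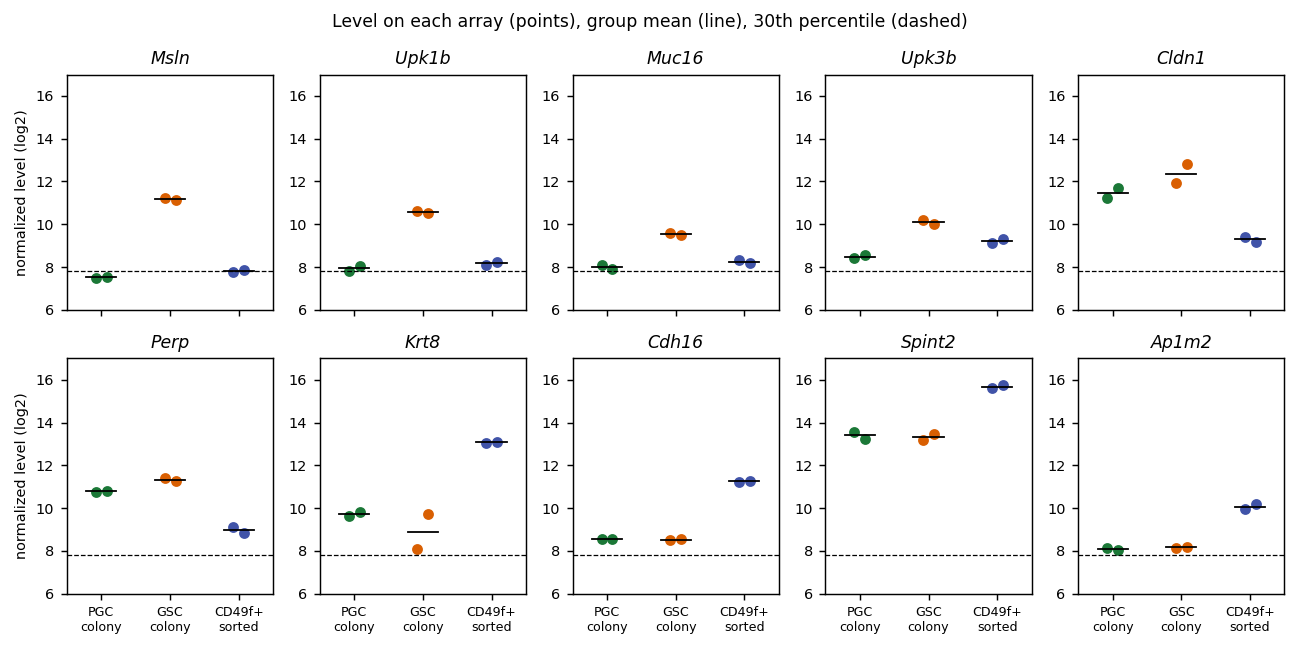
Normalized level (log2, y axis) of 10 genes on each array (points) with the group mean (line) and the 30th percentile (dashed) for PGC colonies, GSC colonies and CD49f+ sorted cells. Msln, Upk1b, Muc16 and Upk3b peak in GSC colonies, Cldn1 and Perp are high in both colony groups, and Krt8, Cdh16, Spint2 and Ap1m2 are highest on both sorted arrays.

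Transcription factors of the mesonephric duct and of epithelia come next. Pax8, of the duct, kidney and thyroid, measured 9.93 and 10.04 in PGC colonies, 10.07 and 10.01 in GSC colonies, and 10.44 and 10.43 in sorted cells, and fell by 0.45 ± 0.11 in PGC colonies (adjusted p = 0.013) and fell by 0.39 ± 0.11 in GSC colonies (adjusted p = 0.023). Its relative Pax2 did not pass in any comparison, with the 6 arrays between 8.53 and 8.82. Elf3, an ETS factor of epithelia, was under the filter's level in PGC colonies, at 7.69 and 7.67, with 7.74 and 7.86 in GSC colonies and 8.97 and 8.78 in sorted cells. Elf3 was lower in PGC colonies by at least 2.08-fold (adjusted p = 0.00035) and fell by 1.08 ± 0.12 in GSC colonies (adjusted p = 0.00055), and its printed window held 1 E-box. The related Ehf measured 9.58 and 9.33 in PGC colonies, 9.46 and 9.44 in GSC colonies, and 10.01 and 9.88 in sorted cells, and fell by 0.49 ± 0.13 in either colony group (adjusted p = 0.021 in PGC and 0.02 in GSC colonies). Grhl2, a regulator of junction genes, lay under the filter's level on all 6 arrays, between 7.49 and 7.73.

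Esrp1 and Esrp2 are splicing factors of epithelia. Esrp1 lay under the filter's level on every colony array, at 6.70 and 6.84 in PGC colonies and 7.36 and 7.11 in GSC colonies, against 8.81 and 8.67 in sorted cells. It was at least 1.89-fold lower in either colony group (adjusted p = 7.1e-05 in PGC and 0.00021 in GSC colonies). Esrp2, which acts on many of the same exons, overlapped between all groups, at 9.68 and 9.55 in PGC colonies, 9.84 and 9.47 in GSC colonies, and 9.37 and 9.60 in sorted cells. The difference of Esrp2 was 0.13 ± 0.16 in PGC colonies (adjusted p = 0.56) and 0.18 ± 0.16 in GSC colonies (adjusted p = 0.42) against sorted cells.

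Matriptase and its inhibitors were represented by 3 genes. St14, the membrane protease matriptase, was highest in PGC colonies, at 9.18 and 9.61, with 8.90 and 8.70 in GSC colonies and 8.31 and 8.65 in sorted cells. It rose by 0.91 ± 0.19 in PGC colonies against sorted cells (adjusted p = 0.0089), and the difference of 0.59 ± 0.19 between PGC and GSC colonies did not pass (adjusted p = 0.095). Both of its inhibitors were lower in the colonies. Spint2 measured 13.57 and 13.23 in PGC colonies, 13.20 and 13.45 in GSC colonies, and 15.61 and 15.76 in sorted cells. The colony groups overlapped and every sorted array lay above them, and Spint2 fell by 2.28 ± 0.16 in PGC colonies (adjusted p = 8.1e-05) and fell by 2.36 ± 0.16 in GSC colonies (adjusted p = 6.4e-05). Its window held 3 E-boxes. Spint1 measured 7.91 and 7.86 in PGC colonies, 8.13 and 8.20 in GSC colonies, and 8.57 and 8.75 in sorted cells, and fell by 0.77 ± 0.11 in PGC colonies (adjusted p = 0.002) and fell by 0.49 ± 0.11 in GSC colonies (adjusted p = 0.013).

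Among trafficking and apical surface genes the response was uneven. Ap1m2, the epithelial subunit of the adaptor that sorts proteins to the basolateral membrane, measured 8.11 and 8.02 in PGC colonies, 8.13 and 8.20 in GSC colonies, and 9.95 and 10.17 in sorted cells. It fell by 2.00 ± 0.12 in PGC colonies (adjusted p = 4.5e-05) and fell by 1.90 ± 0.12 in GSC colonies (adjusted p = 5.1e-05), and its window held 4 E-boxes. Rab25, a small GTPase of apical recycling, did not pass in any comparison, at 9.94 and 9.74 in PGC colonies, 9.85 and 9.98 in GSC colonies, and 10.20 and 9.95 in sorted cells. The window of Rab25 held an E-box too. Prom1, the apical membrane protein prominin, read 11.05 and 11.30 in PGC colonies, 10.98 and 11.40 in GSC colonies, and 11 and 8.98 in sorted cells, and did not pass. The sorted arrays of this probe differed by 2.03, and without sorted replicate 1 the difference in GSC colonies was 2.21. Another Prom1 probe showed 9.96 and 10.01 in PGC colonies, 9.79 and 9.73 in GSC colonies, and 11.36 and 11.25 in sorted cells, differences of -1.32 in PGC and -1.55 in GSC colonies. The remaining probes were lower in GSC colonies too, by fitted values of -0.33, which did not pass, and -1.59, with the colony arrays under the filter's level. Of 4 Prom1 probes, just the probe standing for the gene was higher in the colonies than in sorted cells. Muc1 was not tested, at 7.64 and 7.55 in PGC colonies, 7.57 and 7.96 in GSC colonies, and 6.82 and 6.75 in sorted cells.

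PGC colonies were set against GSC colonies to ask how epithelial genes differ between embryonic and neonatal gonadal cells grown alike. Of the 39 tested genes, 9 (23.1%) passed limma's test, 1 higher (Dsg2) and 8 lower (Krt7, Pkp2, Perp, Cdh3, Msln, Muc16, Upk1b and Upk3b), where 15.1% of all tested genes passed, 7.08% higher and 7.98% lower. Another 8 genes had an unadjusted p under 0.05 without passing, 17 in all. The share of all genes at that unadjusted p was not counted, so this number cannot be read as an excess. The median difference was -0.10, against 0.01 over all genes. The 4 mesothelial genes passed in every setting tried, while Krt7, Dsg2, Pkp2, Perp and Cdh3 each lost the call in at least 1. Leaving out 1 array at a time took away calls among the 9 genes and added others (Cldn1, Cldn7, Krt19, Krt8, Marveld2 and Pkp3). Embryonic and postnatal origin, and the sex of the embryos, cannot be told apart here.

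GSC colonies were set against sorted cells to compare neonatal testicular cells after colony growth with cells of that stage taken by CD49f. Of the 39 genes, 26 (66.7%) passed limma's test, 6 higher and 20 lower, where 47.1% of all tested genes passed, 22.5% higher and 24.5% lower. The median difference was -0.49, against -0.01 over all genes, and the median absolute difference 0.86, against 0.42 over all genes. Without normalization between arrays the median gene shifted by 0.465. The split became 12 higher and 11 lower, beside 8179 higher and 1732 lower over all genes. Relative to that shift all 26 called genes kept their sign. Subtracting the shift is itself a centring between arrays, so this is not a result without normalization. Leaving out 1 array at a time gave 19 to 26 calls, 19 to 25 of them among the 26, and Cldn7, Crb3, Dsp, Ehf, Lsr, Marveld2, Pax8 and Spint1 lost the call without at least 1 array. Colony culture (laminin, EGF) and CD49f selection coincide with the groups and cannot be told apart.

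In PGC colonies against sorted cells, which differ in stage as well as in culture and sorting, 29 of the 39 genes (74.4%) passed, 3 higher (Cldn1, Perp and St14) and 26 lower, where 46% of all tested genes passed, 22.8% higher and 23.2% lower. The median difference was -0.67, or -0.54 with genes under the filter's level set at their bound, against -0.02 over all genes. Without normalization between arrays the median gene shifted by 0.423. The split became 6 higher and 15 lower, beside 7573 higher and 1838 lower over all genes. All 29 kept their sign relative to that shift, which again is a centring between arrays. Leaving out 1 array at a time gave 22 to 29 calls, 22 to 28 of them among the 29, and Cldn4, Cldn6, Cldn7, Dsp, Ehf, Krt18, Msln, Pax8, Pkp3 and St14 lost the call without at least 1. Set side by side, 20 genes were lower and 2 (Cldn1 and Perp) higher in both colony groups against sorted cells, Msln and Upk3b were higher in GSC and lower in PGC colonies, and 8 passed in neither comparison. Both comparisons use the same sorted arrays.

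**Figure D3:**
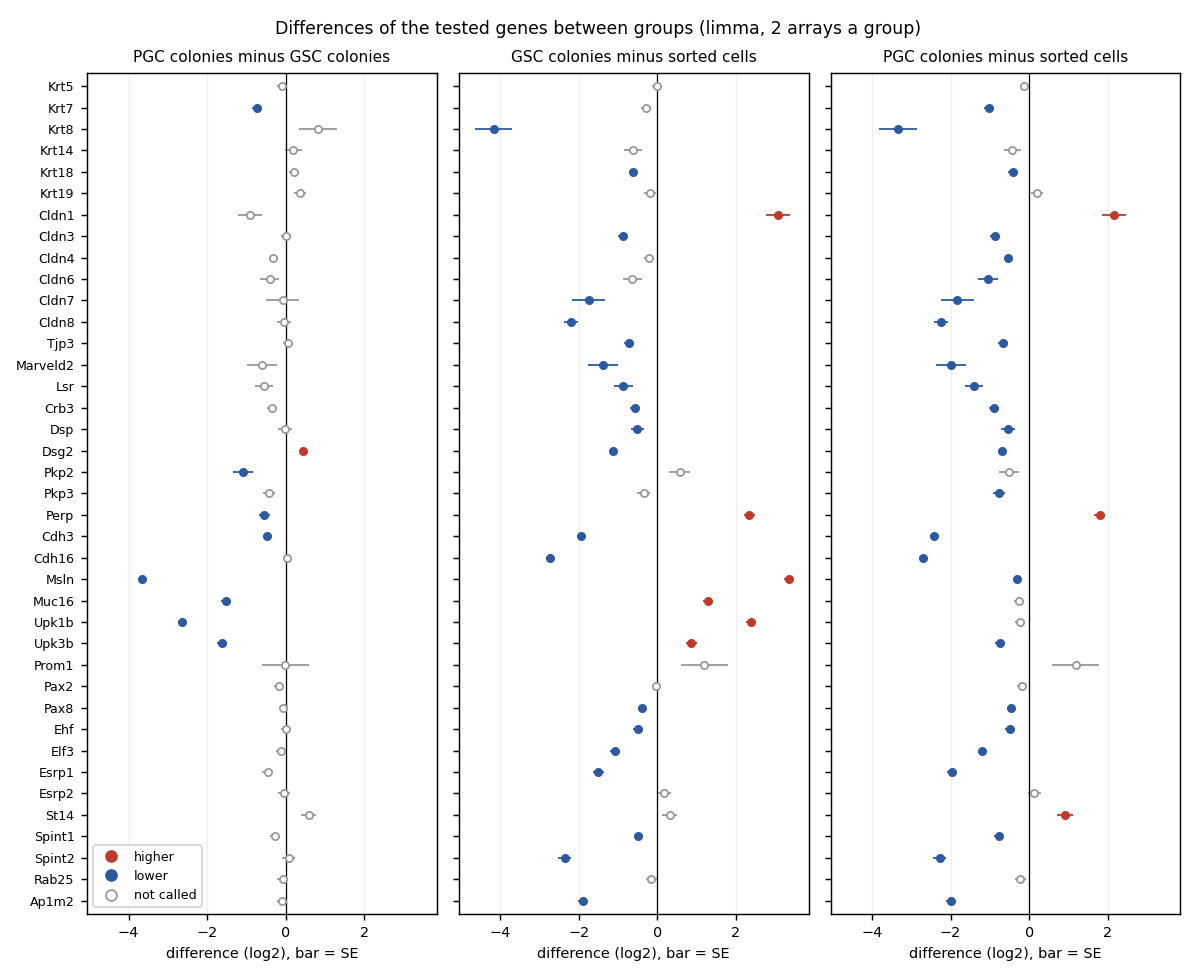
Difference between groups (log2, x axis, bar = SE from limma, 2 arrays a group) for the 39 tested genes, PGC minus GSC colonies at left, GSC colonies minus sorted cells in the middle and PGC colonies minus sorted cells at right, with called genes filled; genes under the filter's level in a group are drawn at their fitted value. The falls against sorted cells reach -4.17 for Krt8, and between the colony groups Msln, Upk1b, Upk3b and Muc16 lie farthest to the left.

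Other genes of the same pathways, from a second list, were counted as well, beside shares of all tested genes that passed of 15.1% in PGC against GSC colonies, 47.1% in GSC colonies and 46% in PGC colonies against sorted cells. Of 18 tested tight and adherens junction genes, 10 fell and 2 rose in GSC colonies, and 10 fell and 4 rose in PGC colonies, against sorted cells, and 1 fell in PGC against GSC colonies, which is 66.7%, 77.8% and 5.56% of the list, in that order. E-cadherin, Cdh1, the main adhesion protein of epithelia, measured 8.17 and 8.14 in PGC colonies, 7.81 and 8.00 in GSC colonies, and 9.19 and 9.23 in sorted cells, and fell by 1.06 ± 0.11 in PGC colonies (adjusted p = 0.0005) and fell by 1.30 ± 0.11 in GSC colonies (adjusted p = 0.00019). Epcam, an epithelial adhesion molecule, measured 8.43 and 8.41 in PGC colonies, 8.54 and 8.64 in GSC colonies, and 10.38 and 10.54 in sorted cells, and fell by 2.04 ± 0.11 in PGC colonies (adjusted p = 3.2e-05) and fell by 1.87 ± 0.11 in GSC colonies (adjusted p = 3.8e-05). Cgn, the tight junction scaffold cingulin, had the deepest fall of this list: it fell by 3.38 ± 0.21 in PGC colonies (adjusted p = 4.6e-05) and fell by 3.15 ± 0.21 in GSC colonies (adjusted p = 5.6e-05). Occludin, Ocln, was lower in PGC colonies by at least 5.37-fold (adjusted p = 2.5e-05) and fell by 2.22 ± 0.13 in GSC colonies (adjusted p = 3.7e-05). The members that rose included Cldn15, a claudin of the gut, by 2.76 ± 0.15 in GSC colonies (adjusted p = 2.6e-05), and Pard3, a polarity scaffold, by 1.29 ± 0.12 there (adjusted p = 0.00023). Cldn15 also fell by 2.11 ± 0.15 in PGC colonies against GSC colonies (adjusted p = 0.0004).

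In the second mesothelial list, 13 genes were tested, and 8 rose and 2 fell in GSC colonies against sorted cells, 6 rose and 4 fell in PGC colonies against sorted cells, and 2 rose and 5 fell in PGC against GSC colonies. That is 76.9%, 76.9% and 53.8% of the list in these comparisons, against 47.1%, 46% and 15.1% of all tested genes. Tcf21, a transcription factor of gonadal and coelomic mesenchyme as well, rose by 4.15 ± 0.19 in GSC colonies (adjusted p = 1.2e-05) and by 3.02 ± 0.19 in PGC colonies (adjusted p = 4.7e-05). Wt1, which is also in the Sertoli list, measured 12.37 and 12.59 in PGC colonies, 12.33 and 12.23 in GSC colonies, and 14.69 and 14.54 in sorted cells, and fell by 2.13 ± 0.13 in PGC colonies (adjusted p = 4.2e-05) and fell by 2.33 ± 0.13 in GSC colonies (adjusted p = 2.7e-05). Crip1, a small LIM protein, fell by 2.54 ± 0.12 in PGC colonies against GSC colonies (adjusted p = 0.0001), and Pdpn, the surface glycoprotein podoplanin, fell by 1.88 ± 0.22 (adjusted p = 0.0027). Gpm6a, a membrane glycoprotein of neurons and mesothelium, was at least 2.59-fold higher in PGC than in GSC colonies (adjusted p = 0.00094). Among 8 other epithelial transcription factors tested, Klf5 was the only one past the test (12.5% of the list in each comparison), and it rose by 3.25 ± 0.11 in GSC colonies (adjusted p = 4.7e-06) and by 2.41 ± 0.11 in PGC colonies (adjusted p = 1.6e-05), and fell by 0.84 ± 0.11 in PGC against GSC colonies (adjusted p = 0.0047).

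Genes of epithelial to mesenchymal transition, a program known to repress junction genes, were measured beside them. Of 11 tested, 7 rose and 0 fell in each colony group against sorted cells, and 2 rose in PGC against GSC colonies. That is 63.6% of the list against sorted cells, where 47.1% of all tested genes passed in GSC and 46% in PGC colonies, and 18.2% between the colony groups, where 15.1% passed. Zeb1, a repressor that binds the E-box described above, measured 14.61 and 14.49 in PGC colonies, 14.46 and 14.26 in GSC colonies, and 13.01 and 13.11 in sorted cells, and rose by 1.50 ± 0.12 in PGC colonies (adjusted p = 0.00016) and by 1.30 ± 0.12 in GSC colonies (adjusted p = 0.00028). Snai2, a related repressor, measured 13.34 and 13.71 in PGC colonies, 13.50 and 13.46 in GSC colonies, and 10.86 and 10.88 in sorted cells, and rose by 2.66 ± 0.15 in PGC colonies (adjusted p = 3.1e-05) and by 2.61 ± 0.15 in GSC colonies (adjusted p = 2.9e-05). Snai1 and Zeb2, of the same families, did not pass, at -0.10 ± 0.16 and -0.05 ± 0.10 in PGC colonies and -0.23 ± 0.16 and 0.12 ± 0.10 in GSC colonies. The matrix gene Fn1 rose by 5.75 ± 0.14 in PGC colonies (adjusted p = 3.9e-06) and by 5.34 ± 0.14 in GSC colonies (adjusted p = 2.3e-06). Twist1, a factor of mesenchyme, rose by 4.80 ± 0.13 in PGC colonies and by 4.19 ± 0.13 in GSC colonies (adjusted p = 4e-06 and 3.7e-06). S100a4, a calcium-binding protein of motile cells, rose by 4.28 ± 0.14 in PGC colonies (adjusted p = 5.9e-06) and by 4.56 ± 0.14 in GSC colonies (adjusted p = 3.7e-06). Vim, the filament gene of mesenchymal cells, did not pass, with the 6 arrays between 16.69 and 17.15. Cdh2, a cadherin, did not pass either, at 0.35 ± 0.15 in PGC colonies (limma adjusted p = 0.098) and 0.27 ± 0.15 in GSC colonies (adjusted p = 0.18). Fibroblast markers moved in the same direction as these genes, as given above, and whether either is linked to the junction genes was not tested.

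**Figure D4:**
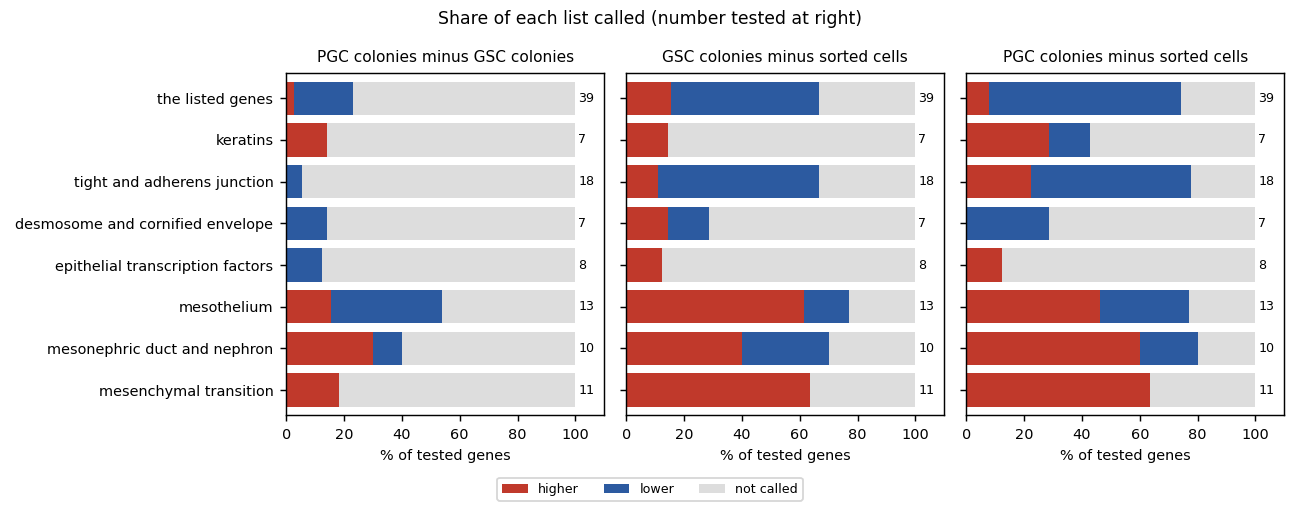
Share of the tested genes of each list (%, x axis) called higher, called lower or not called by limma in PGC against GSC colonies, GSC colonies against sorted cells and PGC colonies against sorted cells, with the number tested at the right of each bar. Against sorted cells the 39 genes are mostly lower, and the 11 genes of mesenchymal transition include 7 called higher and 0 called lower in each colony group.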

How the data were processed

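Deposited probe intensities on a linear scale were used for 26423 probes, 1 value per probe and array. Per the labels' protocols, 1 µg of total RNA with an integrity number of at least 6 went onto each array. How the authors subtracted background and scaled the arrays is not stated in the labels used here. Values below 0 occurred on 4 arrays (52, 310, 86 and 474 probes) and medians differed between arrays, so the deposited intensities were background corrected (normexp, offset 50), log2 transformed and then quantile normalized across arrays. The deposited table carries no detection calls, and a group was treated as near background under the 30th percentile of its arrays (7.82). The number of arrays limits the precision.

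Probe symbols came from the platform annotation: 21876 probes had 1 symbol, 0 several and 4547 none, Entrez identifiers of 21825 matched RefSeq and 0 symbols were updated. The probe with the highest mean stood for each of 2424 genes with several. All 6 arrays entered 1 fit (limma 3.58.1 in R 4.3.3, lmFit and eBayes, 3 residual degrees of freedom, no block), adjusted over 15459 genes and tested on simulated data first. The median SE was 0.134. A bound on a fold sets the brighter group's mean against, per array, the higher of the dim probe and the 30th percentile.

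Members and lists (the 42 genes, other epithelial, mesothelial and transition lists, and marker lists of fibroblast, Sertoli, leukocyte, endothelial, Leydig and germ cells) were chosen with earlier results of these data known. Named were the members past the threshold, at least 1 member of each role, up to 2 rises and 2 falls per other list, Cdh1 and Epcam. Zeb1, Snai1, Snai2, Zeb2, Vim and Cdh2 were added after their values were seen. Promoter windows are from RefSeq (GRCm38.p6), and a motif was counted on either strand. Alternatives covered normalization, background, filters, probe choice, fits and leaving out arrays.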

Additional observations from a re-analysis of the deposited data

Results flagged for a closer look

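The mesothelial genes Msln and Upk3b stood out because both colony groups, set against the same sorted arrays, were called in opposite directions. Msln rose by 3.34 in GSC colonies and was lower by at least 1.01-fold in PGC colonies against sorted cells, and the fitted difference of PGC minus GSC colonies was -3.66 (limma adjusted p = 1.9e-05). That fitted value is no bound, since Msln lay under the filter's level on both PGC colony arrays, and the bound is at least 10.2-fold lower in PGC colonies than in GSC colonies. The call against sorted cells was lost in several other settings, while the difference between the colony groups passed in all settings tried. Upk3b rose by 0.87 in GSC colonies and fell by 0.75 in PGC colonies against sorted cells, and the direct difference of PGC minus GSC colonies was -1.62 (adjusted p = 0.00068). The call of Upk3b in PGC colonies against sorted cells was lost without normalization between arrays, at -0.33 (adjusted p = 0.068), and held in the other settings tried. Groups of 2 arrays are too small to screen single arrays as outliers.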

How the results depend on the processing

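In PGC against GSC colonies, 9 of the 42 genes were called, and 5 when the sorted arrays were left out of the fit, 5 with a replicate block, and 4 to 8 when 1 array was left out. All genes called there numbered 2329, and 1483 to 2093 without 1 array (1483 without GSC colony replicate 1). Leaving out 1 array also moved the calls of both colony groups against sorted cells, among the 42 genes and over all genes alike. Replicate numbers are not stated to pair the arrays. Replicate differences correlated at -0.179 between PGC and GSC colonies, 0.326 between PGC colonies and sorted cells, and -0.342 between GSC colonies and sorted cells. With 1 such difference per group, these values cannot settle whether replicate numbers pair the arrays. The replicate block gave 25 and 27 calls for GSC and PGC colonies against sorted cells, beside 6804 and 6637 over all genes. Between PGC and GSC colonies the block gave 1707 calls over all genes. Among genes called in either setting, signs turned without normalization between arrays: in GSC colonies against sorted cells Krt5 became 0.47, Dsp 0.0594, Pax2 0.36 and Pax8 0.10, and in PGC colonies Krt18 0.0137 and Msln 0.0329. Genes called in neither setting changed sign there too, under median centring, without 1 array, and, for Prom1, with the mean of its probes (-0.57 in GSC and -0.34 in PGC colonies against sorted cells). That setting shifts the median gene by 0.465 and 0.423, and over all genes its calls were 8179 higher and 1732 lower in GSC colonies, against 3486 and 3793, and 7573 higher and 1838 lower in PGC colonies, against 3517 and 3594. Median centring gave 4020 higher and 3188 lower in GSC colonies. Calls held in all settings in which the gene was tested for 4 of 9 genes between the colony groups. They held for 16 of 26 in GSC colonies and 16 of 29 in PGC colonies against sorted cells. A 50th percentile filter tested just 20 of these 26 and 22 of these 29, so the others were not tried in that setting. The cause of the lost calls was not tested.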

Other observations

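Lists that the text above leaves out had calls in both directions, beside 15.1% of all tested genes called in PGC against GSC colonies, 47.1% in GSC colonies and 46% in PGC colonies against sorted cells. Of 10 tested genes of the mesonephric duct and nephron, 4 rose and 3 fell in GSC colonies against sorted cells, 6 rose and 2 fell in PGC colonies against sorted cells, and 3 rose and 1 fell in PGC against GSC colonies, which is 70%, 80% and 40% of the list. Eya1, a transcription cofactor of kidney and ear, measured 11.55 and 10.94 in PGC colonies, 9.02 and 8.99 in GSC colonies, and 10.35 and 10.07 in sorted cells, and rose by 2.24 ± 0.21 in PGC against GSC colonies (limma adjusted p = 0.0013). Gata3, a duct factor, rose by 1.23 ± 0.12 there (adjusted p = 0.0015). The homeobox gene Emx2, of the duct and early gonad, had the opposite order: it fell by 1.08 ± 0.10 in PGC against GSC colonies (adjusted p = 0.0012) and rose by 2.66 ± 0.10 in GSC colonies against sorted cells (adjusted p = 6.8e-06). Osr1, a factor of intermediate mesoderm, rose by 3.28 ± 0.25 in GSC colonies against sorted cells (adjusted p = 9.9e-05).

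Of 7 other keratins tested, 1 rose in PGC against GSC colonies and 1 in GSC colonies against sorted cells, and 2 rose and 1 fell in PGC colonies against sorted cells, which is 14.3%, 14.3% and 42.9% of the list. Krt15, a keratin of epithelial progenitors, measured 9.99 and 9.32 in PGC colonies, 8.03 and 7.89 in GSC colonies, and 6.22 and 7.00 in sorted cells, and was at least 3.56-fold higher in PGC colonies than in sorted cells (adjusted p = 0.00039). Of 7 other desmosome and cornified envelope genes, 1 fell in PGC against GSC colonies, 1 rose and 1 fell in GSC colonies against sorted cells, and 2 fell in PGC colonies against sorted cells, which is 14.3%, 28.6% and 28.6% of the list. Ppl, the envelope protein periplakin, was at least 2.00-fold lower in PGC than in GSC colonies (adjusted p = 0.0015), and Dsc2, a desmosomal cadherin, fell by 1.25 ± 0.20 in PGC colonies against sorted cells (adjusted p = 0.003).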
